A study of Mus musculus with 4 samples.

Results

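Collagen chain genes were taken as every gene on the array whose probe sets carry exactly 1 symbol made of Col, digits, a and digits in the platform annotation. The rule found 36 genes of the 12394 on the array, read by 58 probe sets, and 26 of the 36 gave a signal above the floor of 43.0 used here on at least 1 of 4 days. They were placed in 3 groups by the structure their proteins are known to form: fibrillar chains (9 genes), chains of the basement membrane and its zone (8 genes, types IV, XV and XVIII), and all others (19 genes). The 10 genes that lay under the floor on all 4 arrays were Col2a1, Col9a1, Col9a2, Col9a3, Col10a1, Col11a2, Col20a1, Col4a3, Col4a4 and Col4a6. Of these, Col20a1 is little studied, the 3 type IV chains are best known from specialised basement membranes such as those of the kidney, and the rest are best known from cartilage.

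Most collagens are secreted proteins whose chains wind around each other into a helix. Fibrillar types I, III and V form the fibres of the muscle's connective tissue, type IV forms the sheet of the basement membrane that wraps each muscle fibre and its satellite cells, and type VI forms beaded filaments that link the sheet to the fibres outside it. After muscle injury much of the new matrix is known to come from fibroblasts and fibro-adipogenic progenitors, while satellite cells in the mouse are also known to make types V and VI, and type V acts there on the calcitonin receptor to hold the cells in quiescence.

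The RNA came from myogenic cells, the stem and precursor cells of muscle, purified straight from injured hind limbs and not cultured; cardiotoxin, from snake venom, kills muscle fibres but leaves stem cells that can rebuild them. The 4 groups are myogenic cells of C57BL/6 mice aged 8 to 12 weeks taken on day 2, day 3, day 5 and day 14 after cardiotoxin, with 1 array each, no uninjured group and no genetic change named in the labels. The antibody named for the purification is SM/C-2.6, which recognises satellite cells, and the labels do not say how many animals stand behind a sample. Records of days 2 and 5 share a wording and those of days 3 and 14 another, so the ratios of day 5 over day 2 and of day 14 over day 3 lie within a wording.

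All values are scaled signal intensities of Affymetrix probe sets, a measure whose size depends on the probes, so a gene was compared with itself across days and never with another gene. With 1 array a day no ratio has a replicate check and no test was made. A gene was counted as higher or lower at 2-fold, a size rule, and where 1 of the 2 signals lay under the floor the ratio is a lower bound, written "at least". Myod1, the factor that commits cells to muscle, gave 2271.7, 1404.8, 500.2 and 935.0 on days 2, 3, 5 and 14, while Pax7, the mark of satellite cells, gave 35.7, 59.4, 216.8 and 323.2 and so lay under the floor on day 2. Myod1 was above the floor on all 4 days, which fits the labelled cell type. On the 4 arrays 50.5% to 60.0% of genes lay above the floor, fewest on day 2. For Gapdh, the signal at the 3' end of the transcript divided by that at the 5' end, a sign of how whole the RNA is, lay between 1.88 and 2.87 and was higher on days 5 and 14 than on days 2 and 3. For Actb the same ratio was 1.80, 2.20, 2.19 and 2.14 on days 2, 3, 5 and 14, so days 5 and 14 did not stand apart from day 3. The part of these in the collagen values was not tested.

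Start regions are shown for members that the results turn on, to set their sequence beside their courses. Each is the 250 bases before the gene's start on its own strand, from RefSeq on GRCm38.p6. Capitals mark matches to 4 short motifs on either strand, none of which overlapped another in these regions. The first is TATAAA, the TATA box, which reads TTTATA on the other strand. The next is CCAAT, which reads ATTGG on the other strand. Then comes GGGCGG, a GC box, which reads CCGCCC on the other strand. The last is CAGCTG, an E-box core that myogenic factors bind, which reads the same on both strands. Col1a2 and Col3a1 encode chains of fibre-forming types I and III, Col18a1 and Col15a1 those of types XVIII and XV, whose days of highest signal differed, and Col13a1 was the member that was lower on later days. Col18a1 has 2 start regions in the table.
Col1a2, chr6:4505368-4505617, plus strand: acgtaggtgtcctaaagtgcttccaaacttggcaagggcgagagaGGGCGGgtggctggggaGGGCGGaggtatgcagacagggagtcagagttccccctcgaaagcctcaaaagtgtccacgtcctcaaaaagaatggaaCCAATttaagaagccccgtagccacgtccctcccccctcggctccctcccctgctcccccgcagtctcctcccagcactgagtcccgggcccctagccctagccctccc
Col3a1, chr1:45311288-45311537, plus strand: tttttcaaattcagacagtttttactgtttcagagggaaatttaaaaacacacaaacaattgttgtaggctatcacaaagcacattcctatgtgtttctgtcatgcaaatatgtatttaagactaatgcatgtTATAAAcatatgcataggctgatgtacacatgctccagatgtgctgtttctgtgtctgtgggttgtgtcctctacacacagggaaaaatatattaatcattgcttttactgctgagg
Col18a1, chr10:77113706-77113955, minus strand: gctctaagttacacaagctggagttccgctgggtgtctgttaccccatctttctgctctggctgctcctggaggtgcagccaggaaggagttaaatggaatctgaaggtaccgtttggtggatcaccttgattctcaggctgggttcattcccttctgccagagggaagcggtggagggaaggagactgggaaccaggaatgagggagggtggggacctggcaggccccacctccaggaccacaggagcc
Col18a1, chr10:77166531-77166780, minus strand: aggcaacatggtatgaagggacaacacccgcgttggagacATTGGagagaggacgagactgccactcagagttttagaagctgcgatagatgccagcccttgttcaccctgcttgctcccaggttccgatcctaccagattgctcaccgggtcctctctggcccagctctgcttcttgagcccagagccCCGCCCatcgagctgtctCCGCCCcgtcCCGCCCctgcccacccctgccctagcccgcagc
Col15a1, chr4:47207762-47208011, plus strand: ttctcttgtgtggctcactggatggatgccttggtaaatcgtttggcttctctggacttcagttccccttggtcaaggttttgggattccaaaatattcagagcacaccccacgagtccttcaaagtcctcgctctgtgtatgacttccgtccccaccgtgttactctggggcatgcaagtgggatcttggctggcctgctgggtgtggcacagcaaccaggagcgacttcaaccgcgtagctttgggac
Col13a1, chr10:61979109-61979358, minus strand: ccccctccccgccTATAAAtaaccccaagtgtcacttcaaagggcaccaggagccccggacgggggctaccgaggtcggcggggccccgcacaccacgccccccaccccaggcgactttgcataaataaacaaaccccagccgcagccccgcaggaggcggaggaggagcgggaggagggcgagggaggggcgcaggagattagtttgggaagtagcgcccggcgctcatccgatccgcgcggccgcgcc

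The Col1a2 region held 2 GGGCGG and 1 CCAAT, and 62.0% of its bases were G or C. The Col3a1 region held 1 TATAAA and was poorer in G and C, at 35.2%. Of the Col18a1 regions the upstream one held 3 GGGCGG and 1 CCAAT, and the other held none of the 4 motifs, as did the Col15a1 region. The Col13a1 region held 1 TATAAA. Across the 30 regions listed for 27 members, GGGCGG was found in 16 (53.3%), against 32.7% of all 32851 regions, CCAAT in 12 (40.0%), against 33.8%, TATAAA in 5 (16.7%), against 12.4%, and CAGCTG in 4 (13.3%), against 13.0%. The median share of G and C was 58.4% in the members' regions and 52.4% in all regions. A match is a run of letters and says nothing of binding. No start region was used for the other 9 members, Col1a1 among them.

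Col4a1 and Col4a2, which encode the chains of the common form of type IV, start back to back on opposite strands, and the first bases of their transcripts overlap over 22 bases at chr8:11312805-11312826. They are shown, on the plus strand and without motif capitals, because the genes' courses were nearly the same.
Col4a1 and Col4a2, shared start, plus strand: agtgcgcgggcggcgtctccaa
Other members also lie side by side with no protein-coding gene between them in the RefSeq table: Col3a1 and Col5a2 on chromosome 1, and Col6a2 and Col6a1 on chromosome 10, where 2 genes lie between Col6a1 and Col18a1.

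Each of the 7 fibrillar genes above the floor on any array had its lowest signal on day 2 and its highest on day 5 or 14. Col1a1, which encodes the major chain of type I collagen, gave signals of 107.4, 329.7, 1255.7 and 1301.4 on days 2, 3, 5 and 14. Its partner chain Col1a2 gave 1592.3, 6137.9, 10695.2 and 8813.7 on those days. Col3a1, the chain of type III, the collagen of early granulation tissue, gave 1200.7, 3167.7, 8042.7 and 8751.2. Each of these signals was lowest on day 2, intermediate on day 3 and high on both late days, and for each the difference between days 14 and 5 was within 2-fold. The day 3 signal of Col1a1 was 3.07-fold, of Col1a2 3.85-fold and of Col3a1 2.64-fold that of day 2. On day 5, Col1a1 was 3.81-fold and Col3a1 2.54-fold higher than on day 3, while Col1a2 was 1.74-fold higher by its brighter probe set and 2.92-fold higher by the other.

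Type V chains start fibrils and set their width. Col5a1 gave 137.6, 1085.3, 4112.2 and 2389.0 on days 2, 3, 5 and 14. Col5a2 gave 1494.2, 2496.2, 5724.4 and 4663.9. Col5a3 gave 22.6, 217.5, 705.6 and 1088.9. All 3 were lowest on day 2, Col5a1 and Col5a2 were highest on day 5, and Col5a3 was highest on day 14. On day 3, Col5a1 was 7.89-fold and Col5a3 at least 5.06-fold higher than on day 2. Col5a2 was 1.67-fold higher at that step by the probe set that stands for it and 3.34-fold by its other one, so its call depends on the probe set. Col11a1, a chain of type XI that is best known from cartilage and is also found with type V, gave 15.3, 38.2, 149.7 and 109.6. It was under the floor on days 2 and 3 and at least 3.49-fold higher on day 5 than on day 3, a call lost with a floor of 100 in place of 43.0.

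**Figure D1:**
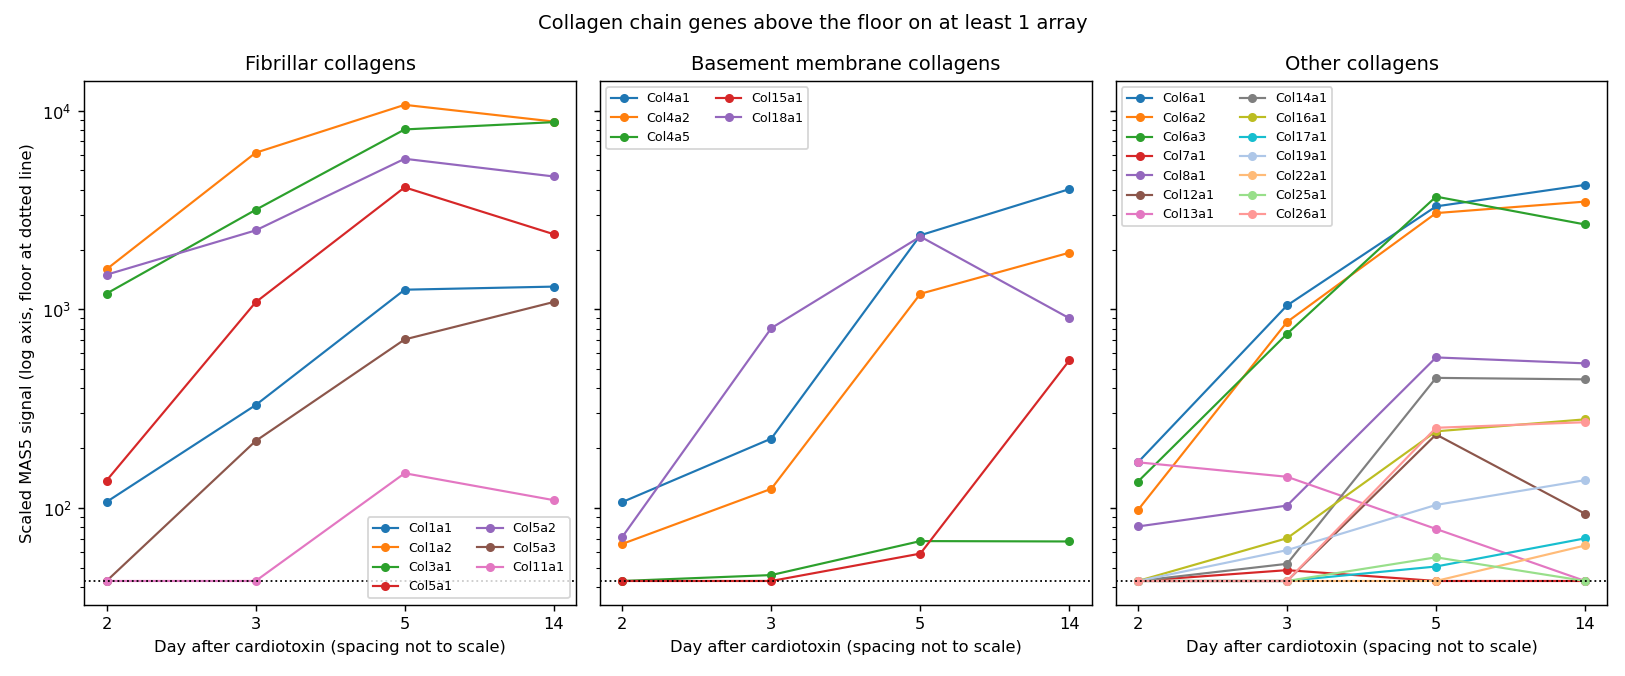
Scaled signal (log axis) of each collagen gene above the floor on at least 1 array, on days 2, 3, 5 and 14 after cardiotoxin, in 3 panels by group; each point is 1 array, days are evenly spaced and not to scale, and the dotted line is the floor of 43.0. Of the 26 genes, 22 (84.6%) lie higher on both days 5 and 14 than on both days 2 and 3, against 2953 of 7930 genes (37.2%). Col13a1 runs the other way, as 28.4% of all those genes do.

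The basement membrane genes did not share a course. Col4a1 gave 107.2, 223.7, 2359.9 and 4027.7 on days 2, 3, 5 and 14. Col4a2 gave 66.0, 125.0, 1197.4 and 1928.2. Both stayed low through day 3, were far higher on day 5 and were highest on day 14. Their day 5 signals were 10.5-fold and 9.58-fold those of day 3, and 13 and 18 of the 7523 genes measured at that step had a larger ratio. From day to day the log2 ratios of the pair differed by at most 0.14, less than the SD of 0.37 between probe sets of the same gene over all genes at the day 5 over day 3 step. On day 3 against day 2, Col4a1 was 2.09-fold higher, a call lost under 5 of 8 other settings of scaling, floor and probe set, and Col4a2 was 1.89-fold higher.

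Col18a1 encodes the chain of type XVIII, a proteoglycan of basement membranes whose end piece is endostatin, and it gave 71.6, 804.6, 2323.6 and 901.7 on days 2, 3, 5 and 14. Its signal was lowest on day 2 and highest on day 5, and that of day 14 lay close to that of day 3. The day 3 signal was 11.2-fold that of day 2, the largest ratio of any member at that step, with 12 of 6991 measured genes above it. On day 14 it was 2.58-fold lower than on day 5. Col15a1, the chain of the related type XV, which is known in muscle as a protein that stabilises fibres and capillaries in the mouse, gave 5.6, 12.7, 59.0 and 554.1. It lay under the floor on days 2 and 3, just over it on day 5 and was high on day 14 alone. Its day 14 signal was 9.39-fold that of day 5, with 10 of 7709 measured genes above it. Over the day 14 over day 5 step the log2 ratios of Col15a1 and Col18a1 thus differed by 4.60. Col4a5, a type IV chain found with the specialised ones, gave 1.0, 46.0, 68.2 and 67.9, under the floor on day 2 and not far above it on the other days.

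All 3 type VI genes were at least 2-fold higher at both early steps. Col6a1 gave 169.9, 1046.0, 3297.7 and 4229.8 on days 2, 3, 5 and 14. Col6a2 gave 97.8, 863.9, 3050.9 and 3485.2. Col6a3, the longest type VI chain, gave 135.9, 752.9, 3692.0 and 2674.1. All 3 were lowest on day 2 and already several times higher on day 3, and their signals on days 14 and 5 were within 2-fold of each other. On day 3 they were 6.16-fold (Col6a1), 8.84-fold (Col6a2) and 5.54-fold (Col6a3) higher than on day 2, and on day 5 a further 3.15-fold, 3.53-fold and 4.90-fold higher than on day 3. Mutations in these chains are known to cause muscle disease in people, and loss of Col6a1 in the mouse to impair satellite cell renewal.

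Of the collagens that sit on the surface of fibrils, Col12a1, Col14a1 and Col16a1 were at least 2-fold higher on day 5 than on day 3. Col12a1, type XII, known from tendon and muscle, gave 1.8, 28.0, 234.6 and 93.6 on days 2, 3, 5 and 14. Col14a1, type XIV, gave 19.7, 52.4, 452.0 and 444.3. Col16a1, type XVI, gave 18.2, 70.5, 243.3 and 279.5. All 3 lay under the floor on day 2 and were high on day 5. On day 5, Col14a1 was 8.63-fold, Col12a1 at least 5.46-fold and Col16a1 3.45-fold higher than on day 3. On day 14, Col12a1 was 2.51-fold lower than on day 5, while Col14a1 and Col16a1 were within 2-fold. Col19a1, type XIX, which is known in the mouse from the muscle of the oesophagus, gave 41.4, 61.4, 103.7 and 138.2. Col22a1, the collagen of the junction between muscle and tendon, gave 2.9, 13.3, 22.3 and 64.8 and passed the floor on day 14 alone. The day 14 signal of Col19a1 was at least 3.22-fold that of day 2, a call lost when arrays were scaled to a common median and with a floor of 100.

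Col8a1, a network-forming chain best known from vessel walls, gave 80.8, 102.9, 572.8 and 534.9 on days 2, 3, 5 and 14. Col26a1, a little studied chain first found in gonads, gave 9.9, 36.9, 253.5 and 270.4. Both were low through day 3 and high on days 5 and 14. On day 5, Col8a1 was 5.57-fold and Col26a1 at least 5.90-fold higher than on day 3, although the median over the probe sets of Col8a1 gave a log2 ratio of 1.57 in place of 2.48.

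Of the 3 transmembrane collagens on the array 1 ran against the rest. Col13a1, a membrane collagen known from the neuromuscular junction, gave 169.9, 143.7, 78.5 and 33.6 on days 2, 3, 5 and 14. Its signal was highest on day 2 and under the floor on day 14. The day 14 signal was at least 3.96-fold lower than that of day 2, a call lost with a floor of 100. Col17a1, the collagen of hemidesmosomes in skin, gave 19.4, 28.8, 50.8 and 70.4. Col25a1, which motor axons are known to need to enter muscle in the mouse, gave 12.3, 20.4, 56.5 and 19.6. Both were near or under the floor on all 4 days, and so was Col7a1, the collagen of skin anchoring fibrils, at 25.8, 48.7, 38.4 and 39.3.

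Counted together, 10 of the 19 members measured on day 3 against day 2 were at least 2-fold higher and 0 lower, against 6.69% higher and 1.8% lower of all 6991 measured genes. The median log2 ratio was 1.06 for the members and 0.06 for all genes. Of the fibrillar genes 5 of 6 were higher, of the basement membrane genes 2 of 4 and of the others 3 of 9. In 6 of the 19 members 1 of the 2 signals lay under the floor. A gene that passes the floor on its higher day alone has to differ, so the count was also made over genes above the floor on both days: 9 of 13 members were higher there, against 351 of 6141 genes. Scaling the arrays to a common median ended the calls of Col3a1 and Col4a1 and left 8 members higher.

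On day 5 against day 3, 17 of the 25 measured members were higher and 0 lower, against 11.6% higher and 5.97% lower of all 7523 measured genes, with medians of 1.70 for the members and 0.06 for all genes. The higher members were 6 of 7 fibrillar genes, 3 of 5 basement membrane genes and 8 of 13 others. Among genes above the floor on both days, 14 of 18 members were higher, against 714 of 6602 genes. The call of Col5a2 was lost under the common median (log2 ratio 0.96). At both early steps in turn, day 3 over day 2 and day 5 over day 3, 9 of the 26 members above the floor (34.6%) were at least 2-fold higher, against 158 of 7930 genes (1.99%). Those 9 were Col1a1, Col3a1, Col4a1, Col5a1, Col5a3, Col6a1, Col6a2, Col6a3 and Col18a1.

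On day 14 against day 5, 1 of 25 measured members was higher, Col15a1, and 2 were lower, Col18a1 and Col12a1. These shares lay near those of all 7709 measured genes, 4.81% higher and 3.1% lower, and the medians were 0.05 for the members and 0.01 for all genes. Of the 20 members called on day 5 over day 2, 18 (90.0%) were within 2-fold of their day 5 signal on day 14, against 87.1% of the 2319 genes so called. Of the members within 2-fold, Col5a1 was 1.72-fold lower on day 14, Col4a1 1.71-fold higher and Col4a2 1.61-fold higher. Col13a1 was at least 1.83-fold lower.

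From end to end of the course, 20 of 24 measured members were higher on day 14 than on day 2 and 1 was lower, Col13a1, against 22.8% higher and 14.8% lower of all 7668 measured genes. All 7 measured fibrillar genes, 4 of 5 basement membrane genes and 9 of 12 others were higher. Col4a1 was 37.6-fold, Col6a2 35.6-fold, Col4a2 29.2-fold, Col6a1 24.9-fold and Col6a3 19.7-fold higher, and Col5a3 at least 25.4-fold. Of the 24, 12 had a signal under the floor, mostly on day 2. Among genes above it on both days, 12 of 12 members were higher, against 1126 of 6029 genes. That count leaves out Col13a1, the lower member, since its day 14 signal of 33.6 lay under the floor. The common median ended the calls of Col5a2, Col12a1 and Col19a1 and left 17 higher, and a floor of 100 ended those of Col11a1, Col13a1 and Col19a1 and left Col12a1 unmeasured. Within the wording that days 2 and 5 share, 19 of 24 members were higher on day 5 than on day 2 and 1 was lower, Col13a1, against 19.8% and 11.4% of all genes. Within the other wording 17 of 25 were higher on day 14 than on day 3 and 1 was lower, Col13a1 again, against 16.3% and 11.5%. The comparisons share arrays, so they are not independent of each other.

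**Figure D2:**
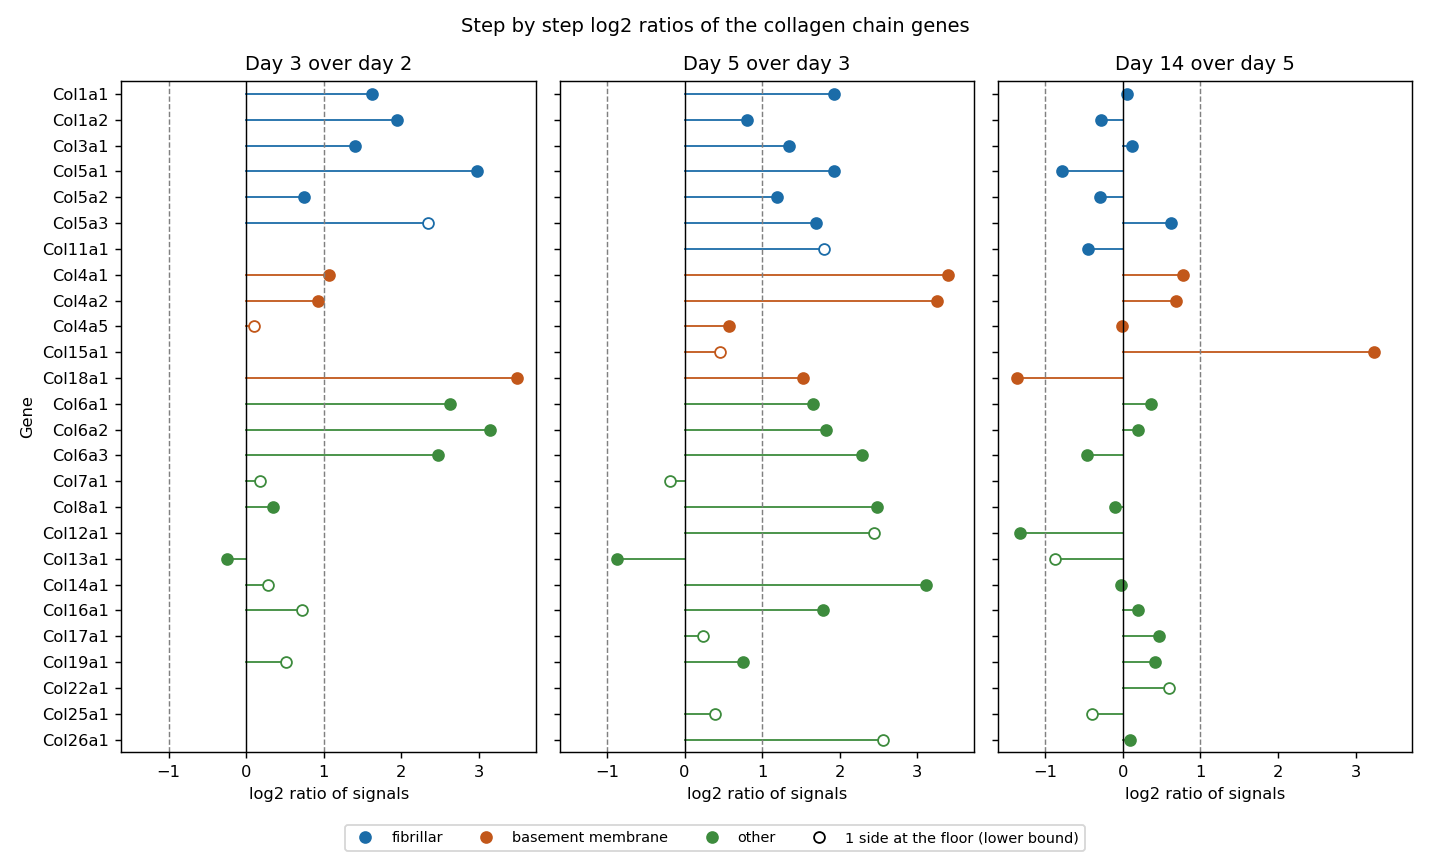
Log2 ratio of each measured collagen gene at the 3 consecutive steps, 1 panel a step and 1 point a gene, coloured by group; open points are lower bounds with 1 side at the floor, dashed lines mark 2-fold, and a gene at the floor on both days has no point. Most points lie to the right of 0 at the first and middle steps and near 0 at day 14 over day 5, where Col15a1 stands apart at 3.23.

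**Figure D3:**
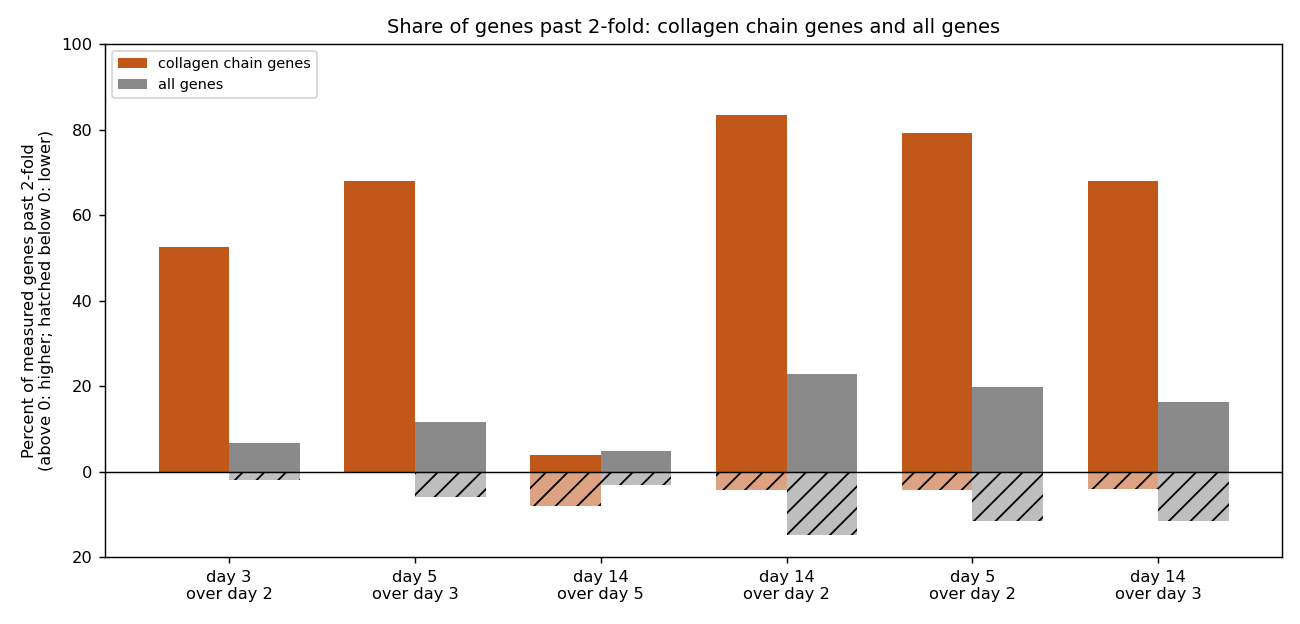
Percent of measured genes at least 2-fold higher (bars above 0) or lower (hatched bars below 0), collagen chain genes in orange and all genes in grey, for the 6 pairs of days. The collagen bars reach 52.6% at day 3 over day 2, where the bar of all genes reaches 6.69%, and at day 14 over day 5 both bars are short.

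How much of the total difference was present on day 3 differed between members. The share of the log2 ratio of day 5 over day 2 that was reached on day 3 was computed for the 12 members at least 2-fold higher and above the floor on all 4 days. It was 70.8% for Col1a2, 69.5% for Col18a1, 63.3% for Col6a2, 61.3% for Col6a1 and 60.8% for Col5a1. It was 51.8% for Col6a3, 51.0% for Col3a1, 45.6% for Col1a1 and 38.2% for Col5a2. It was lowest for Col4a1 (23.8%), Col4a2 (22.0%) and Col8a1 (12.3%). Each share rests on 1 probe set, and the order of the members depends on which is used. At day 3 over day 2 and day 5 over day 2, the other Col1a2 probe set had log2 ratios of 2.26 and 3.81. Those used were 1.95 and 2.75, so its share would be smaller. The other Col5a2 probe set had 1.74 and 3.67, against 0.74 and 1.94, so its share would be larger.

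Chains that build the same molecule were set beside each other by their log2 ratios, since their signals cannot be compared. For the type I pair, Col1a1 minus Col1a2 was -0.33 at day 3 over day 2, 1.13 at day 5 over day 3 and 0.33 at day 14 over day 5. For type V, Col5a1 minus Col5a2 was 2.24, 0.72 and -0.49 at those steps. These differences depend on the probe set: the other Col1a2 probe set had a log2 ratio of 1.55 in place of 0.80 at day 5 over day 3, and the other Col5a2 probe set 1.74 in place of 0.74 at day 3 over day 2, so both gaps would be smaller with them. For type VI the differences lay between -0.64 and 0.82. Over these consecutive steps the type IV pair was the closest of the pairs compared.

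Probe sets of the same gene gave the same direction from day 2 to day 5 but not the same size. Of the 36 genes 19 had several probe sets, and 12 had several that could be measured on day 5 over day 2. The dimmer probe set of Col3a1 gave 55.6, 185.5, 1172.4 and 1591.9 on days 2, 3, 5 and 14, so its log2 ratio of day 5 over day 2 was 4.40, against 2.74 for the brighter one. That of Col5a2 gave 153.4, 512.0, 1947.9 and 2033.3, with 3.67 against 1.94. In both genes the dimmer probe set had the larger ratio. Among members called higher on day 5 over day 3 with several probe sets above the floor on both days, the brightest probe set gave a smaller ratio than the mean of the others in 6 of 7 (Col1a1, Col3a1, Col5a1, Col5a2, Col6a2 and Col18a1). Over all genes so called it did in 55 of 192 (28.6%). The SD of the log2 ratio of day 5 over day 2 between probe sets of a gene was 0.85 over 5 collagen genes and 10 probe sets above the floor on both days, against 0.47 over 2013 genes. The spread differed between genes: the Col5a1 probe sets above the floor on both days gave log2 ratios of 4.90 and 5.11, and those of Col6a2 4.96 and 4.41. The printed folds thus depend on the probe set. A spread between probe sets of the same arrays does not measure how much a difference between days would vary.

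**Figure D4:**
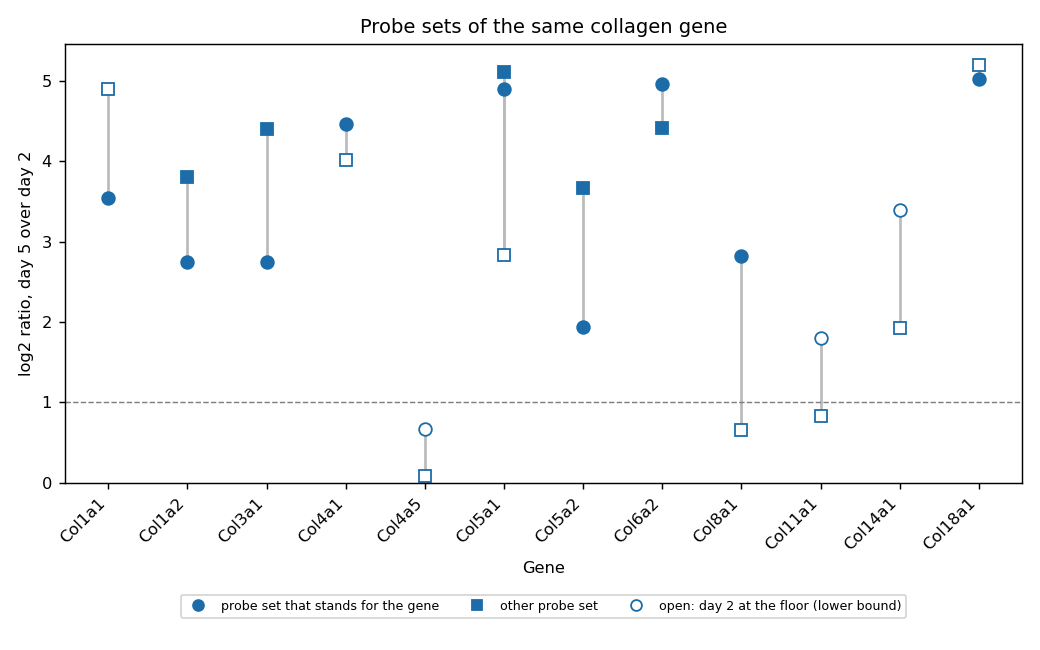
Log2 ratio of day 5 over day 2 (vertical axis) for each probe set of the 12 collagen genes with several measured probe sets; circles are the probe sets that stand for the gene, squares the others, open symbols are lower bounds with day 2 at the floor, and the dashed line is 2-fold. The points of Col3a1 lie at 2.74 and 4.40 and those of Col5a2 at 1.94 and 3.67, with the probe set that stands for the gene as the lower one.

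Genes that handle collagen chains were taken in 5 lists, whose counts stand beside the shares of all measured genes: 6.69% higher and 1.8% lower at day 3 over day 2, 11.6% and 5.97% at day 5 over day 3, and 4.81% and 3.1% at day 14 over day 5. Those that modify and fold the chains in the cell had 2 of 15 measured genes higher on day 3 than on day 2, 8 of 15 higher on day 5 than on day 3 and 0 of 15 past 2-fold on day 14 against day 5, with median log2 ratios of 0.26, 1.03 and -0.37. P4ha1, the catalytic chain of prolyl hydroxylase, gave 252.8, 265.2, 540.4 and 488.0 on days 2, 3, 5 and 14, and its partner P4hb 3382.1, 3696.4, 4647.1 and 3948.4. Plod2, which hydroxylates lysines for crosslinks, gave 75.8, 84.9, 373.6 and 259.7, and Serpinh1, the chaperone Hsp47, 1685.7, 2102.1, 3871.7 and 3052.3. All 4 were highest on day 5, and Plod2 (4.40-fold) and P4ha1 (2.04-fold, another of its probe sets at a log2 ratio of 0.48) were past 2-fold on day 5 over day 3. So were P4ha2 (4.15-fold), another prolyl hydroxylase chain, the matrix protein Sparc (3.79-fold) and P3h3, a prolyl 3-hydroxylase family member (3.36-fold). On day 3 over day 2 the 2 past 2-fold were P3h4 (2.14-fold) and P3h1 (2.03-fold, with another probe set at a log2 ratio of 0.79), which act in the same family.

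Genes of collagen export had 3 of 9 measured genes higher on day 3 than on day 2, 3 of 9 higher on day 5 than on day 3 and 1 of 9 lower on day 14 than on day 5 (medians 0.23, 0.69 and -0.18), against 6.69% and 11.6% higher and 3.1% lower of all genes. Creb3l1, a transcription factor that drives collagen secretion, gave 17.7, 169.4, 515.6 and 145.9 on days 2, 3, 5 and 14, and Kdelr3, a retrieval receptor of the secretory path, 104.6, 261.3, 1162.9 and 680.0. Both were highest on day 5, and Creb3l1 was 3.53-fold lower on day 14 than on day 5. Mia3, which packs procollagen into carriers, was 2.21-fold higher on day 3 than on day 2, with another probe set at a log2 ratio of 0.33, and Sec23a, a coat protein of those carriers, 2.25-fold higher on day 5 than on day 3.

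Genes that process and crosslink procollagen had 4 of 7 measured genes higher on day 3 than on day 2, 6 of 7 higher on day 5 than on day 3 and 2 of 7 lower on day 14 than on day 5 (medians 1.56, 2.09 and -0.49), against 6.69% and 11.6% higher and 3.1% lower of all genes. Bmp1, the protease that removes the procollagen end, gave 104.4, 144.1, 730.2 and 772.7 on days 2, 3, 5 and 14. Pcolce, which speeds that cut, gave 118.8, 798.1, 1887.2 and 1103.4, and Lox, the crosslinking lysyl oxidase, 273.0, 802.7, 3414.2 and 871.8. Lox and Pcolce were highest on day 5, whereas Bmp1 by this probe set was alike on both late days; its probe sets spanned log2 ratios from -1.30 to 0.08 at day 14 over day 5. Lox was 3.92-fold lower on day 14 than on day 5 and its relative Loxl3 2.04-fold lower, while Loxl1, also a lysyl oxidase, gave 138.5, 469.7, 2817.3 and 2768.5. Pcolce2, related to Pcolce, ran the other way, at 489.9, 308.9, 158.6 and 135.4. Tgm2, a crosslinking transglutaminase, was at least 3.07-fold higher on day 3 than on day 2, with probe sets down to a log2 ratio of 0.80, and 4.71-fold higher on day 5 than on day 3.

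Receptors gave 1 of 5 higher on day 3 than on day 2, 2 of 6 higher on day 5 than on day 3, and 1 higher and 1 lower of 7 on day 14 against day 5 (medians 0.58, 0.70 and -0.06), where 6.69% and 11.6% of all genes were higher at the early steps and 4.81% higher and 3.1% lower at the last. With so few receptors, 1 call is not a result about the list. Ddr2, a kinase receptor of fibrillar collagen, gave 172.4, 181.4, 202.8 and 229.0 on days 2, 3, 5 and 14, and Itgb1, the shared chain of the collagen integrins, 501.0, 420.4, 633.6 and 520.8. Both stayed within 2-fold on all days. Mrc2, which takes up collagen fragments, gave 17.5, 67.2, 559.7 and 235.1 and was 8.33-fold higher on day 5 than on day 3 and 2.38-fold lower on day 14 than on day 5. Ddr1, another kinase receptor, was 2.17-fold higher on day 3 than on day 2, with probe sets down to a log2 ratio of 0.66, and 2.04-fold higher on day 5 than on day 3, where its probe sets spanned log2 ratios from -0.77 to 1.05. Cd36, a scavenger receptor that binds collagen, was at least 2.24-fold higher on day 14 than on day 5, with another probe set at a log2 ratio of 0.88. Itga11 had no value in the table used.

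Genes of degradation were counted together with the inhibitors Timp1, Timp2 and Timp3. Of these, 2 of 7 were higher on day 3 than on day 2 and 7 of 10 on day 5 than on day 3. On day 14, 5 of 10 were lower than on day 5. The medians were 0.76, 2.38 and -0.85, and of all genes 6.69% and 11.6% were higher and 3.1% lower. Timp3 was among the 7 higher, and Timp1 and Timp3 among the 5 lower, so the counts are not of degrading enzymes alone. Mmp2, a gelatinase, gave 72.8, 307.4, 2541.8 and 4138.0 on days 2, 3, 5 and 14, and Mmp14, its membrane activator, 75.0, 259.8, 2119.6 and 834.0. Fap, a surface protease of activated fibroblasts, gave 16.7, 68.6, 1249.4 and 873.5. Mmp2 was highest on day 14 and the other two on day 5. On day 5, Fap was 18.2-fold, Mmp2 8.27-fold and Mmp14 8.16-fold higher than on day 3, and Timp3, a protease inhibitor, 8.32-fold, with probe sets down to a log2 ratio of 0.22. On day 14 the inhibitor Timp1 was 4.23-fold lower than on day 5, Mmp9 at least 3.98-fold (another probe set at a log2 ratio of -0.78), Mmp13 2.90-fold and Mmp14 2.54-fold lower.

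**Figure D5:**
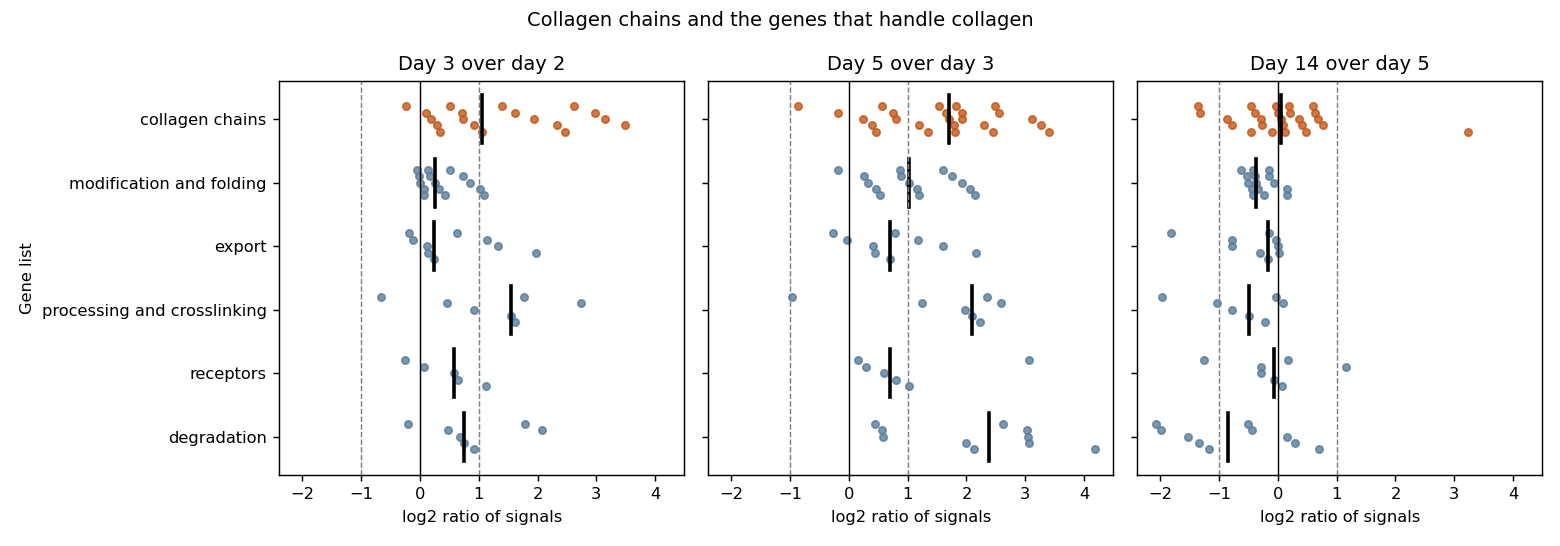
Log2 ratio of each measured gene (points) and the median (black bar) of the collagen chains (orange) and the 5 lists of genes that handle collagen (blue), at the 3 consecutive steps; dashed lines mark 2-fold. At day 5 over day 3 the medians run from 0.69 for export to 2.38 for degradation with its inhibitors. The collagen chains lie at 1.70 there. At day 14 over day 5 all 5 list medians lie below 0.

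Most lists of markers of other cells had their lowest sum on day 2, the day on which most collagen genes had their lowest signal. A list of non-collagen fibroblast and fibro-adipogenic markers had 9, 16, 19 and 20 of 27 genes above the floor on days 2, 3, 5 and 14, and their summed signal was 2742, 6094, 22863 and 29453. It was lowest on day 2 and highest on days 5 and 14, as the collagen genes were. Its defining gene Pdgfra gave 11.1, 41.7, 105.3 and 104.1, and Dpt, dermatopontin, a matrix protein, 32.5, 70.7, 1430.3 and 5877.4. A few bright genes weigh most in such a sum: on day 14, 7233.7 of it came from Gsn and 5877.4 from Dpt. Clec3b, Dpp4, Twist2, Osr1, Tcf21 and Cd55 of the list lay under the floor on every array. Mural and smooth muscle markers, which include Des and others that muscle cells also use, had 3, 7, 9 and 10 of 13 above the floor. Their sums were 1804, 5870, 13081 and 12571, of which 7743.8 on day 5 came from Acta2. Their defining gene Pdgfrb gave 14.8, 66.7, 321.7 and 235.8.

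Tendon markers had 5, 6, 6 and 6 of 7 above the floor on days 2, 3, 5 and 14, with sums of 1084, 3606, 5815 and 10836, of which 3122.7 on day 14 came from Chodl, a gene known also from quiescent satellite cells. Their defining gene Scx, a transcription factor of tendon cells, gave 30.3, 67.5, 27.2 and 31.2. It passed the floor on day 3 alone. Macrophage markers had 4, 10, 16 and 16 of 18 above the floor, with sums of 419, 1507, 4442 and 3828, and Ptprc, the surface phosphatase of white blood cells, gave 13.1, 14.1, 59.7 and 54.5. Schwann markers had 2, 4, 3 and 4 of 6 above the floor, with sums of 329, 659, 1359 and 3285, most of it from Pmp22 on days 2, 5 and 14, and Sox10, a Schwann cell factor, gave 15.8, 46.3, 21.5 and 42.0. Every one of these lists had its lowest sum on day 2, but Scx and Sox10 had their highest signal on day 3. The sums include signals under the floor, and day 2 was the dimmest array, with a median scaled signal of 29.5 against 41.7 to 52.8. Of all 7930 genes above the floor on any array, 33.0% were lower on day 2 than on any other day. Myogenic markers had 11, 13, 14 and 14 of 15 above the floor, with sums of 10579, 17857, 17639 and 19310. Gene by gene, the median log2 ratio of day 14 over day 2 was 2.51 over 14 measured myogenic markers, 9 of them higher and 2 lower, and 2.13 over 20 fibroblast markers, 17 higher and 0 lower, where 22.8% of all genes were higher and 14.8% lower. In 11 of the 20 fibroblast markers, but 3 of the 14 myogenic ones, 1 signal lay under the floor. Those ratios are lower bounds, so the 2 medians cannot be ranked against each other.

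Endothelial markers had their highest sum on day 14, as the fibroblast, tendon, Schwann and myogenic lists did. Col15a1 was highest on that day too, as were 2850 of the 7930 genes above the floor on any array (35.9%). On days 2, 3, 5 and 14, 0, 2, 4 and 10 of 16 lay above the floor, with sums of 217, 360, 529 and 1286. At day 5 over day 3, 0 of 4 measured markers were at least 2-fold higher, against 11.6% of all genes. With so few markers, that count is not a result about the list. All 4 had log2 ratios above 0, and Tek was at least 1.99-fold higher. At that step Col4a1 and Col4a2 were 10.5-fold and 9.58-fold higher. At day 14 over day 5, 6 of 10 markers were higher, against 4.81% of all genes. But 6 of the 10 were measured through day 14 alone and so had to be higher, among them the called Cldn5, Vwf, Plvap and Ptprb. Of those above the floor on both days, Tek was 2.50-fold and Esam 2.37-fold higher, and Egfl7 and Eng were within 2-fold. At day 14 over day 5, Col4a1 and Col4a2 were 1.71-fold and 1.61-fold higher. Tek gave 15.3, 28.1, 85.5 and 214.1, and Cldn5 24.3, 38.3, 39.6 and 147.8. Both were highest on day 14. Of the list, Kdr, Vwf, Plvap, Ptprb, Robo4 and Cldn5 passed the floor on day 14 alone. The defining gene Pecam1 (1.4, 6.6, 4.3 and 38.4) lay under the floor on all arrays, as did Cdh5, Tie1, Flt1, Emcn and Erg. Red cell genes Hba-a1 and Alas2 also lay under the floor on all arrays. In RNA of a whole cell sample, fewer cells of a type and less RNA per cell cannot be told apart, and the part of any of these cell types in the collagen values was not tested.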

How the data were processed

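Affymetrix mouse 430A arrays of purified myogenic cells, 1 for each of 4 days, were used through the signal intensity of each probe set that the authors deposited. Per the submitters' processing notes these were made with MAS5, which takes the mismatch probe's brightness from that of its matched probe. The scaling target and other settings are not stated in those notes. The RNeasy Mini Kit was used for RNA, and the GeneChip small sample assay, which amplifies RNA from its 3' end, for labelling, per the labels' protocols. Arrays give no read depth, and their number limits the precision.

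From there, each array was scaled to a common 2% trimmed mean (factors 0.997, 1.13, 0.917 and 0.976 for days 2, 3, 5 and 14), signals under 43.0, the median of all scaled values, were set to it, and log2 ratios were taken between days. The probe set of highest mean log2 signal stands for its gene. A gene under the floor on both days was not measured in that pair. Of 22690 probe sets, 20393 have 1 symbol in the platform annotation and 691 have several, which were not used, and all 58 collagen probe sets matched RefSeq (GRCm38.p6) under the same symbol. All 26 members above the floor are named, with up to 4 genes past 2-fold per list and step by size of ratio, 9 fixed pathway genes on the array whatever their ratio, and defining and high markers. Start regions come from RefSeq. Members, lists and the size rule were chosen with earlier results of these data known. On simulated signals, changes well past 2-fold were planted in bright genes with a single probe set, and the script was checked to recover them. That check does not cover genes near the floor or genes with several probe sets. Python 3.11.15, pandas 2.3.3, numpy 2.4.6, scipy 1.17.1 and matplotlib 3.10.9 were used. Other scalings, floors, probe set rules, group limits and a 3-fold threshold were tried.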

Additional observations from a re-analysis of the deposited data

How the results depend on the processing

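The collagen counts, medians and group values were recomputed under 10 alternatives. Of 306 recomputed values 272 stayed within 1.5 times the count or the spread between probe sets, 34 moved and 0 were labelled reversed. By the rule used, a count could not be labelled reversed, nor could a median near 0. The collagen median at day 14 over day 5, 0.05 as reported, did change sign. It was -0.04 with values as deposited and -0.05 under the common median. With 1 array a day no array could be left out of a comparison. No paired analysis was possible because each day has 1 array and the labels carry no replicate numbers. Among the 34, the count of members lower on day 5 than on day 2, 1 as reported, was 0 with values as deposited, a floor of 100, 16 added in place of a floor, or a 3-fold threshold, and those on day 14 against day 2 and against day 3 were 0 with a floor of 100, since Col13a1 is that member. On day 5 against day 3, 1 was lower under quantile normalization and the common median. On day 14 against day 5, 2 were higher with a floor of 20 or with 16 added, 4 were lower with a floor of 20 and 0 at 3-fold.

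Scaling to a common median shifted every gene: the median of all genes was -0.41, -0.16, -0.10, -0.57, -0.51 and -0.23 for day 3 over 2, 5 over 3, 14 over 5, 14 over 2, 5 over 2 and 14 over 3, against 0.06, 0.06, 0.01, 0.20, 0.16 and 0.09 as reported. It was -0.12, 0.33, -0.08, 0.23, 0.26 and 0.28 with values as deposited. The collagen median minus that of all genes lay between 0.87 and 1.16 at day 3 over 2 under all scalings, between 1.63 and 1.70 at day 5 over 3 and between 2.60 and 2.95 at day 14 over 2. Among all genes past 2-fold, the share that was higher, 78.8%, 66.1%, 60.8%, 60.7%, 63.4% and 58.6% in the same order, was 20.9%, 41.0%, 48.3%, 23.5%, 23.1% and 35.1% under the common median. With values as deposited it was 52.6%, 87.4%, 50.5% and 72.5% at day 3 over 2, 5 over 3, 14 over 5 and 14 over 3, and under quantile normalization 52.9% at day 5 over 2. Under the common median the group medians were 1.28 (fibrillar, 3 over 2), 0.49 (basement membrane, 3 over 2), 2.03 (fibrillar, 14 over 2), 2.12 (other, 14 over 2), 2.01 (fibrillar, 5 over 2) and 3.45 (basement membrane, 5 over 2).

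A floor of 20 gave 2.98 and 3.19 for the basement membrane and other groups at day 5 over 2, and 2.25 for the basement membrane group at day 14 over 3. A floor of 100 gave 1.51 for all members and 2.47 for the other group at day 3 over 2, 3.26 for basement membrane at day 5 over 3, 1.76 for other at day 5 over 2 and 3.21 for basement membrane at day 14 over 3. With 16 added the values were 1.41 and 0.94 (basement membrane and other, 3 over 2), 4.57 (basement membrane, 14 over 2) and 3.15 (other, 5 over 2). The median over probe sets gave 3.85 and 3.57 for fibrillar genes at day 14 and day 5 over 2, and type IV alone gave 3.26 at day 5 over 3 and 4.87 at day 14 over 2. Higher floors leave fewer genes; otherwise the cause was not tested. Between 8 and 13 members were higher at day 3 over 2, and between 14 and 19 at day 5 over 3, over all settings. Genes just above the floor (Col4a5, Col7a1, Col17a1, Col22a1 and Col25a1) are the least certain.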
